A study of Mus musculus with 8 samples.

Results

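The growth hormone and IGF axis was followed through 10 genes in cells of the bone marrow (BM) and in hepatocytes: the growth hormone receptor Ghr, the transcription factors Stat5a and Stat5b, the feedback inhibitors Cish and Socs2, the hormone Igf1, its carrier subunit Igfals, and the binding proteins Igfbp1, Igfbp2 and Igfbp4. The genes were taken by name, with all their probes, and make up 10 of the 49826 gene names on one array design and of the 34761 on the other. All 10 had a probe on both designs. For 7 of them (Ghr, Cish, Socs2, Igfals, Igfbp1, Igfbp2 and Igfbp4) a probe of identical sequence was on both designs, as was the case for 13229 gene names in all.

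Gene expression was measured on 8 single-colour arrays, 2 for each of 4 groups. L3 and L4 held Lin- BM cells and H2 and H4 held primary hepatocytes. BM-derived hepatocytes were on B1 and B2 when collected 1 month after transplantation, and on G1 and G3 when collected after 5 months. By the study's methods, Lin- BM cells are marrow cells left after magnetic removal of mature blood cells. Those transplanted came from young adult female eGFP mice on C57Bl6/J, in which the ubiquitin C promoter drives the reporter, and the recipients were male hemophilia A mice with a disrupted factor VIII gene whose liver had been injured with acetaminophen. BM-derived hepatocytes were then sorted by their eGFP from the perfused liver. The mice that gave the primary hepatocytes are not described in the sources used here, and the study pooled cells of several mice for each experiment. With 2 arrays a group, p-values measure only the spread between these samples, which may be technical. The first slide carried L3, L4, B1 and B2, and the second, of another array design, carried H2, H4, G1 and G3. Slide, design and group cannot be told apart where groups of different slides are compared.

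Stat5a and Stat5b are neighbours in the genome (GRCm38.p6), at chr11:100859351-100885169 and chr11:100780731-100859004, and each has its own probes. Ghr lies at chr15:3317755-3583352 and Igf1 at chr10:87858265-87937047.

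Growth hormone from the pituitary binds its receptor on the hepatocyte, which signals through JAK2 to STAT5A and STAT5B. STAT5 in turn drives transcription of Igf1 and Igfals, and of Cish and Socs2, whose products damp the same receptor. Most circulating IGF-1 comes from the liver and travels in a complex of IGFBP3 and the acid labile subunit, which Igfals encodes. IGFBP1 is made by the liver in fasting and is suppressed by insulin, while IGFBP2 and IGFBP4 bind IGFs outside that complex.

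Comparisons across the slides rest on letters that are the same on both designs. The first 30 bases of the 60-base probes are shown for the binding proteins and the carrier subunit that differed across slides, and for both feedback inhibitors.
Igfbp4: gagaagagaaacctcattcttggagtgaga
Igfbp2: catctcttctacaacgagcagcaggagact
Igfals: ttggccagctggaatatctgcttctgtcca
Cish: actttagaaaacaagtgttagaacacaaga
Socs2: aggtgtgaagatgtagctaggtattttaaa

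Promoter windows in RefSeq on GRCm38.p6, from 250 bases before to 50 bases after a transcript start, were found for 9 of the 10 genes (15 windows), all but Socs2. They were searched on both strands for TTCNNNGAA, the palindrome that STAT dimers bind, and for CAAAACA, the core of the insulin response element known from Igfbp1. The STAT letters were found in 8.3% of the 32851 windows of all genes and at least 2 times in 0.457%, and the insulin response core in 6.28%. Among the 10 genes, the STAT letters were present in Cish and in Igfals, and the insulin response core in Igfbp1. No match overlapped another. The stretches that hold the matches, all on the plus strand, are given with the matches in capitals.
Cish, chr9:107296539-107296688: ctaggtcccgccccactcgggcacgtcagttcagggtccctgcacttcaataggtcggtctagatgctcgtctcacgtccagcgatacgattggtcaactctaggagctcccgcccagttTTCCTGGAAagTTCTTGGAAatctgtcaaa
Igfals, chr17:24877594-24877713: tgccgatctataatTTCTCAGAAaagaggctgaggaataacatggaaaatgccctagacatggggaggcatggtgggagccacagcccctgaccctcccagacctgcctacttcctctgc
Igfals, chr17:24878162-24878191: tctgccaggtgTTCCTAGAAgaggccctgg
Igfbp1, chr11:7197607-7197726: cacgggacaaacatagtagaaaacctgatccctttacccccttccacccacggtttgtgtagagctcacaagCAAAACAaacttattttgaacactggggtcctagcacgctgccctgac
In Cish both matches lay just after the annotated start, at bases 1 to 9 and 12 to 20. In Igfals they lay at -236 to -228 of one start and at -58 to -50 of another. The match in Igfbp1 lay at -108 to -102. A match describes these letters and is not a measured binding site.

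Levels below are log2 signals after background subtraction, relative to the 75th percentile of the same array, so that 0 is the level of that percentile. The share of spots well above background ran from 47.7% to 58.6% per array, and 0 spots were saturated. A gene was called higher or lower when limma gave a Benjamini-Hochberg adjusted p under 0.05 over all genes tested and a log2 change beyond 0.6 in size. As a check of the labels, all 9 hepatocyte markers with a probe on the first slide were well above background on both arrays at 1 month, and all 10 on the second slide in primary and 5-month hepatocytes. In Lin- BM cells 6 of the 9, among them Alb, Apoa1 and Ttr, were well above background on neither array. All 10 blood progenitor markers were well above background on both arrays of Lin- BM cells, and their summed linear level was 748 to 798 there against 4.07 to 7.13 at 1 month. At 1 month 6 of 7 endothelial and 11 of 12 Kupffer cell and macrophage markers were well above background on both arrays, against 6 of 7 and 8 of 12 in Lin- BM cells. The counts alone thus do not set the 2 groups far apart. The summed levels were 55.6 to 61.0 and 12.9 to 51.2 at 1 month (1.77 to 2.36 and 4.83 to 11.1 in Lin- BM cells). Of the 7 endothelial markers 6 were called higher at 1 month and Pecam1 lower. Of the 12 Kupffer cell and macrophage markers 5 were called higher and Cd68 lower. Over all genes 28.8% were called higher and 26.5% lower. The part of these markers in the results was not tested.

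The comparison of 1-month hepatocytes with Lin- BM cells asks which genes of the axis differ between the sorted cells and the population that was transplanted. Of the 10 genes, 7 were called, 6 higher and 1 lower at 1 month, where 55.3% of the 28522 genes tested were called (28.8% higher and 26.5% lower). The receptor, the hormone, the carrier subunit and the 3 binding proteins were higher. Stat5a was lower, and Stat5b, Cish and Socs2 were not called. In bulk samples fewer cells of a type and less RNA per cell cannot be told apart.

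Ghr, the receptor, had levels of -0.95 and -0.30 in Lin- BM cells and of 7.25 and 7.26 at 1 month. It was above background on all 4 arrays, and the groups lay far apart. The log2 change was 7.88 (SE 0.33, limma adjusted p = 1.81e-04), a 236-fold difference. A second probe for Ghr gave 8.95 (SE 0.36), and a further one was above background at 1 month alone and was at least 309-fold higher there.

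Igf1, the hormone itself, was measured on the first slide by 3 probes, none of them on the other design. The brightest had levels of -3.25 and -0.25 in the Lin- BM cells L3 and L4 and of 7.58 and 7.30 at 1 month. The groups did not overlap, and the Lin- arrays differed 7.99-fold, a gap that 0.417% of genes reached in that pair. The change was 9.20 (SE 0.99, adjusted p = 2.19e-03). The other probes gave 8.54 (SE 0.81) and 8.19 (SE 0.74). On all 3 probes L4 was above L3. Marker sums of several cell types differed between these arrays as well. From L3 to L4 the summed linear level of 11 stromal and stellate markers rose from 42.6 to 360. That of Kupffer cell and macrophage markers rose from 4.83 to 11.1. The sums of neutrophil and erythroid markers (770 to 312) and of lymphocyte markers (131 to 48.1) fell. Those of endothelial (1.77 to 2.36) and blood progenitor markers (798 to 748) changed less. Of the 11 stromal and stellate markers 9 were well above background on both Lin- arrays and Lrat and Des on neither. The part of any of these cell types in the result was not tested.

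Igfals, the carrier subunit, was not well above background on either Lin- array (-4.97 and -4.56) and had levels of 1.59 and 0.87 at 1 month. It was at least 50.4-fold higher at 1 month (adjusted p = 4.77e-04), the lower bound being set by the dimmest probes well above background on the Lin- arrays. The same kind of bound applies to Igfbp1 and Igfbp2, whose signals on L3 and L4 were also at background. Igfbp1 had levels of 9.67 and 9.37 at 1 month and was at least 15800-fold higher (adjusted p = 6.06e-05). Igfbp2, at 5.71 and 5.47, was at least 1030-fold higher (adjusted p = 6.41e-05).

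Igfbp4 was present in both groups, unlike the other binding proteins among the 10 genes. Its brightest probe had levels of -1.47 and -2.45 in Lin- BM cells and of 1.85 and 1.15 at 1 month, a change of 3.46 (SE 0.46, adjusted p = 3.94e-03). The probe shared with the other design gave a smaller change of 2.10 (SE 0.39). Without the array B1 the shared probe was the brighter one, and the change was 1.65 and was still called (adjusted p = 0.0378).

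Stat5a was called lower, and it had 1 probe on this slide. Its levels were 2.58 and 3.84 in Lin- BM cells and 1.21 and 0.48 at 1 month. The groups did not overlap, and the change was -2.37 (SE 0.53, adjusted p = 0.0173). The call was lost without the array L4 (-1.74, adjusted p = 0.0542) and without B2 (-2.0, adjusted p = 0.0858). Stat5b had levels of 4.55 and 4.44 in Lin- BM cells and of 4.34 and 4.09 at 1 month on its brightest probe, with a change of -0.28 (95% interval -0.97 to 0.41). With normexp background correction it too was called lower (-0.66, adjusted p = 0.0133). Its dimmer probe gave 0.11 (SE 0.29).

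Cish and Socs2 differed more between the 2 arrays at 1 month than between the groups. Cish had levels of 2.64 and 2.25 in Lin- BM cells and of 4.0 on B1 and 1.16 on B2. The arrays of 1 month lay on either side of the Lin- arrays, and the change was 0.13 (95% interval -2.32 to 2.58). Socs2 had levels of -0.57 and -1.32 in Lin- BM cells and of 1.40 on B1 and -1.48 on B2, with a change of 0.90 (95% interval -1.64 to 3.44). Without B2, Socs2 was called higher (2.34, adjusted p = 0.0354). The groups of the other 8 genes did not overlap, as was true of 82.1% of all genes tested.

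**Figure D1:**
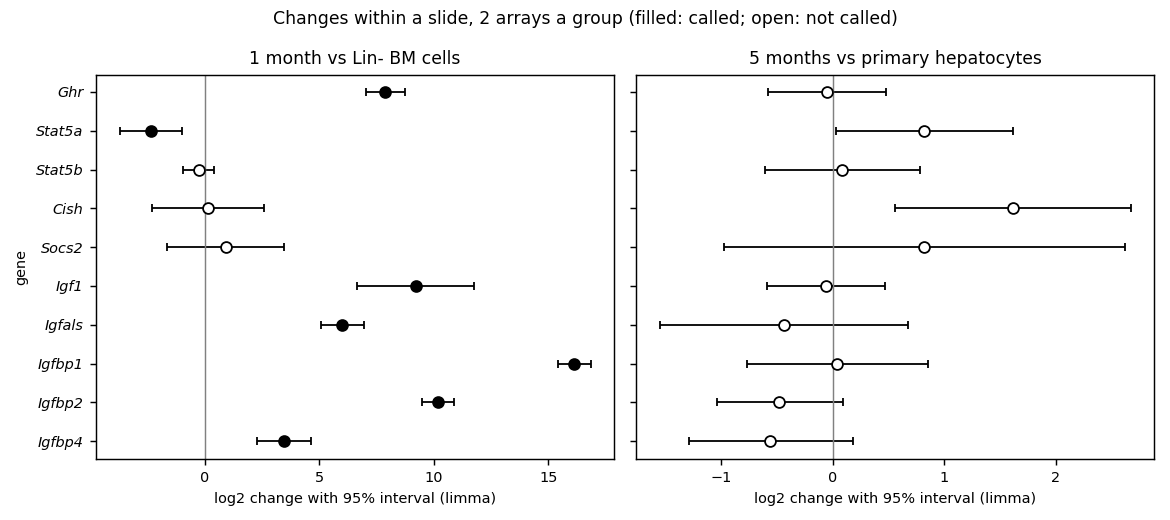
Log2 change (horizontal axis) of the 10 genes with its 95% interval from limma, at 1 month against Lin- BM cells (left) and at 5 months against primary hepatocytes (right), 2 arrays a group. Filled points were called and open points were not: 7 of 10 on the left, 0 of 10 on the right, where Cish has the largest change (1.61).

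The other genes of the pathway were counted for the same comparison from lists of textbook members. Of 13 genes of growth hormone signalling 4 were called, Ghr and Prlr higher and Stat5a and Jak2 lower, where 55.3% of all genes were called. The median change of the 13 was -0.19 beside 0.07 for all genes. Prlr, the prolactin receptor, changed by 4.24 (SE 0.43, adjusted p = 1.80e-03). Jak2, the kinase that the growth hormone receptor activates, changed by -2.18 (SE 0.30, adjusted p = 4.43e-03).

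Of 9 IGF ligands, receptors and adaptors, 5 were higher and 2 lower, where 28.8% and 26.5% of all genes were. Besides Igf1, the adaptors Grb14 (8.16, SE 0.49) and Irs1 (5.38, SE 0.59), the insulin receptor Insr (2.16, SE 0.31) and the clearance receptor Igf2r (1.12, SE 0.30) were higher. Igf1r, the receptor through which IGF-1 signals, was 36.3-fold lower, with a change of -5.18 (SE 0.33, adjusted p = 5.22e-04), and the adaptor Grb10 had a change of -2.57 (SE 0.65). The calls of Grb10 (adjusted p = 0.0947 without B1 and 0.104 without B2) and of Igf2r (adjusted p = 0.0505 to 0.129 without any 1 array) did not hold without single arrays. The ligand and its receptor thus changed in opposite directions.

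Of 12 IGF-binding genes 9 were tested, and all 9 were called (6 higher and 3 lower), where 55.3% of all genes were called. Igfbp7 (3.71, SE 0.40) and Igfbp3 (2.08, SE 0.43) were higher in addition to the 4 genes above. Igfbp5 was at least 16.4-fold lower, Igfbp6 at least 3.66-fold lower and Pappa, a protease that cleaves IGFBP4, at least 2.12-fold lower at 1 month, where they were not well above background. With normexp the changes of Igfbp6 (-0.31) and Pappa (0.08) were not called, and the call of Igfbp3 was lost without B2 (1.82, adjusted p = 0.0746).

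Growth hormone itself (Gh) was not well above background on any of the 8 arrays, nor was its transcription factor Pou1f1. Of 7 pituitary and hypothalamic genes of the axis, 3 were well above background on both arrays at 1 month and 3 in Lin- BM cells. At 1 month 4 were tested against Lin- BM cells. Sst, the hormone somatostatin that restrains growth hormone release, was at least 5.81-fold higher at 1 month (adjusted p = 4.78e-03). Ghrh, the releasing hormone, changed by 0.83 (SE 0.26, adjusted p = 0.0451), a call that was lost without any 1 of the 4 arrays. On shared probes Sst was also at least 5.86-fold higher at 1 month than in primary hepatocytes and at least 4.83-fold higher than at 5 months. The first of these calls was lost without B2 (adjusted p = 0.0522) and the second without G1 (adjusted p = 0.0671) or G3 (adjusted p = 0.0571). Ghrhr, the receptor of the releasing hormone, was above background on 1 of the 2 arrays at 1 month and was called in both of these comparisons (at least 2.07-fold and at least 1.71-fold higher at 1 month). Against Lin- BM cells Ghrhr was not called at 1 month (0.17), although it was with normexp (0.64). It was called lower than in Lin- BM cells in primary hepatocytes (-2.24) and at 5 months (-2.62). With normexp both calls were lost and the signs turned (0.12 and 0.09). Slide and group cannot be told apart in these differences.

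IGFBP1 belongs to the fasting response of the liver, and 8 genes of that response and of glucocorticoid action were counted. At 1 month 4 were higher (Pck1, G6pc, Tat and Ppargc1a, of glucose formation and amino acid breakdown) and 2 lower (the clock gene Per1 at -3.89 and the glucocorticoid receptor chaperone Fkbp5 at -3.35). The call of Per1 was lost without L3 (adjusted p = 0.0821) or L4 (adjusted p = 0.0692). Of 10 induced acute phase genes 9 were higher, with a median change of 8.70. Over all genes 28.8% were called higher and 26.5% lower, and the median change was 0.07.

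Transcripts that differ between male and female liver depend on the pattern of growth hormone release, and lists of both kinds were counted. Of 14 male-biased genes all 14 were called higher at 1 month than in Lin- BM cells, with a median change of 9.95. Over all genes 28.8% were called higher, and the median change was 0.07. All 9 hepatocyte markers tested were called higher too, with a median of 11.89, so such counts are not particular to sex-biased genes. The pheromone carrier Mup20 was at least 4310-fold and the steroid dehydrogenase Hsd3b5 at least 273-fold higher. Of 21 female-biased genes 13 were tested and 11 were called higher, with a median of 6.32. They included Cyp3a44 and Cyp2b9, P450 enzymes that were at least 3650-fold and at least 804-fold higher on their brightest probes (changes of 13.93 and 9.93). Their probes shared with the other design gave much smaller differences, with Lin- BM cells at background. On the scale of shared probes the means were -3.89 at 1 month and -8.05 in Lin- BM cells for Cyp3a44, and -2.20 and -8.06 for Cyp2b9. Mup and Cyp genes have near-identical copies whose transcripts may share a probe, so that the single gene is uncertain. Of 4 liver regulators controlled by growth hormone 3 were tested and all 3 were higher: Onecut1 at least 109-fold, Egfr by 7.54 (SE 0.48) and the repressor Bcl6 by 2.76 (SE 0.34).

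The comparison of 5-month hepatocytes with primary hepatocytes, on the second slide, asks how far the transplanted cells differ from hepatocytes of the liver. None of the 10 genes was called (0 of 10), where 0.552% of the 19929 genes tested were called by limma (0.366% higher and 0.186% lower). At an unadjusted limma p under 0.05, 2817 of the 19929 genes passed, and 2 of the 10, Cish and Stat5a, were among them. With so many genes passing, these 2 are no result about the axis. The intervals below give the differences that these arrays leave possible.

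Ghr had levels of 7.43 and 7.41 in primary hepatocytes and of 7.32 and 7.42 at 5 months. The 4 arrays lay within a narrow range, and the change was -0.05 (95% interval -0.58 to 0.48). A second probe gave -0.41 (SE 0.21).

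Igf1 had 5 probes on this slide, each spotted 2 times. The brightest had levels of 7.54 and 7.62 in primary hepatocytes and of 7.52 and 7.52 at 5 months, a change of -0.06 (95% interval -0.59 to 0.47). Over the 5 probes the change ran from -0.29 to 0.51, and none was called. Within primary hepatocytes 2 probes moved in opposite directions between the arrays. The probe at chr10:87378456-87378515 (mm9) had 1.44 on H2 and 2.55 on H4, while that at chr10:87395924-87395983 had 2.41 on H2 and 1.75 on H4. The repeated spots of these probes on these arrays differed by an SD of at most 0.05 on the log2 scale, less than either gap. The 5-month arrays differed little on both probes (2.49 and 2.52, and 1.83 and 1.75).

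**Figure D2:**
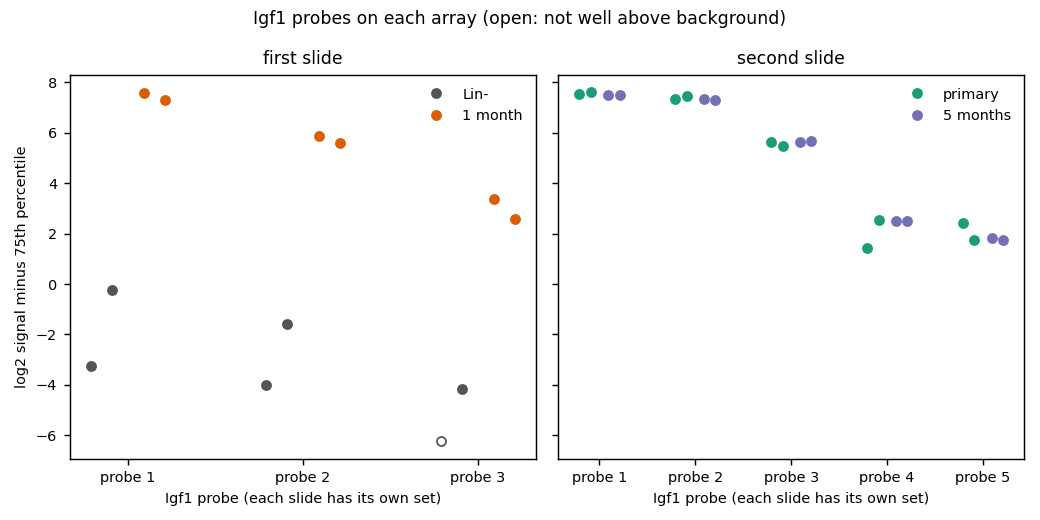
Level of every Igf1 probe (vertical axis, log2 signal minus the 75th percentile of the array) on each array of the first slide (left, 3 probes) and of the second (right, 5 probes), with probes ordered by level. Lin- BM cells lie below 1-month hepatocytes on all 3 probes, while primary and 5-month hepatocytes lie together except for H2 on probes 4 and 5.

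The IGF carrier and binding proteins had small differences of either sign. Igfals had levels of 4.15 and 3.26 in primary hepatocytes and of 2.97 and 3.57 at 5 months, which overlap (change -0.44, 95% interval -1.55 to 0.67). Igfbp1 had 8.51 and 9.19 against 8.91 and 8.86 (change 0.04, 95% interval -0.77 to 0.85). Igfbp2 had 7.83 and 8.04 against 7.42 and 7.50, with the 5-month arrays below (change -0.48, 95% interval -1.04 to 0.09). Igfbp4 had 4.28 and 4.86 against 4.02 and 4.0, again with the 5-month arrays below (change -0.56, 95% interval -1.29 to 0.18).

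Cish, the STAT5-induced inhibitor that binds the activated receptor, had the largest difference of the 10 genes in this comparison. Its levels were 2.47 and 1.47 in primary hepatocytes and 3.6 and 3.57 at 5 months. The 5-month arrays lay above both primary arrays, with a change of 1.61 (95% interval 0.56 to 2.67, limma adjusted p = 0.221). Without the array H2 the change was 2.12 and was called (adjusted p = 0.0159). Stat5a had 1.93 and 2.58 in primary hepatocytes and 3.05 and 3.11 at 5 months, with a change of 0.82 (95% interval 0.03 to 1.61, adjusted p = 0.343). Stat5b had 4.56 and 4.13 against 4.56 and 4.30 (change 0.08, 95% interval -0.61 to 0.78).

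Socs2, the inhibitor whose loss gives overgrown mice, had 1.63 and -0.16 in primary hepatocytes and 1.87 and 1.24 at 5 months. The groups overlapped (change 0.82, 95% interval -0.97 to 2.62). Its probe was spotted 10 times, and the SD of the log2 signal over these spots was 0.02 to 0.07 on the 4 arrays, far below the gap of 1.79 between the primary arrays. Other probes for Socs2 gave 0.42 (SE 0.74) and 0.49 (SE 0.55). A further one was not well above background on any of the 4 arrays. Of the 10 genes, 5 had groups that did not overlap, as had 47.9% of all genes tested.

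In the pathway lists of this comparison 1 gene was called. Of 13 genes of growth hormone signalling, Socs3, an inhibitor also induced by interleukin-6 through STAT3, was higher at 5 months, with levels of 4.44 and 4.45 against 2.20 and 1.94 (change 2.37, SE 0.21, adjusted p = 0.0444). The call was lost without G1 (2.37, adjusted p = 0.433), without G3 (2.37, adjusted p = 0.490), with no filter on dim probes (adjusted p = 0.115), on shared probes (adjusted p = 0.567) and by the methods' t-test after adjustment. The median change of these genes was 0.65 beside 0.04 for all genes. Of 10 induced acute phase genes 0 were called, with a median change of 0.92. The summed level of 12 Kupffer cell and macrophage markers was 36.9 on H2, 78.6 on H4, and 138 and 136 at 5 months, with 11 of the 12 above background on both arrays in either group and Cd163 on neither array at 5 months. Their part in these values was not tested. None was called among the 8 tested IGF ligands, receptors and adaptors, the 9 tested binding genes, the 4 liver regulators, the 8 fasting and glucocorticoid genes, the 12 tested male-biased and the 14 tested female-biased genes (0 calls by limma in each). Elovl3, a male-biased elongase, had the largest of these changes, 3.75 (SE 0.58, adjusted p = 0.113). Of 7 pituitary and hypothalamic genes, 0 were well above background on any array of the second slide, so none was tested.

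Shared probes set all 4 groups side by side for 7 of the genes. Against Lin- BM cells, 5 of the 7 were called higher in primary hepatocytes and 5 of the 7 at 5 months. Of the 9204 genes tested, 67.4% were called in the first of these comparisons (29.3% higher and 38.1% lower) and 67.1% in the second (29.3% higher and 37.8% lower). The groups did not overlap for 6 of the 7 genes in primary hepatocytes, all but Cish, and for 7 of the 7 at 5 months, as was the case for 83.3% and 85.8% of all genes tested. The Lin- arrays are shared by both comparisons. The 5 genes were Ghr, Igfals, Igfbp1, Igfbp2 and Igfbp4 in each. Ghr changed by 7.81 in primary hepatocytes and by 7.80 at 5 months (SE 0.24 for both), and Igfbp4 by 5.64 and 5.12 (SE 0.35 for both). Igfals was at least 237-fold and at least 179-fold higher, Igfbp2 at least 4030-fold and 3140-fold, and Igfbp1 at least 8330-fold and 8800-fold. Cish and Socs2 were not called in either, although with normexp Socs2 was called higher at 5 months (1.79, adjusted p = 0.0323).

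**Figure D3:**
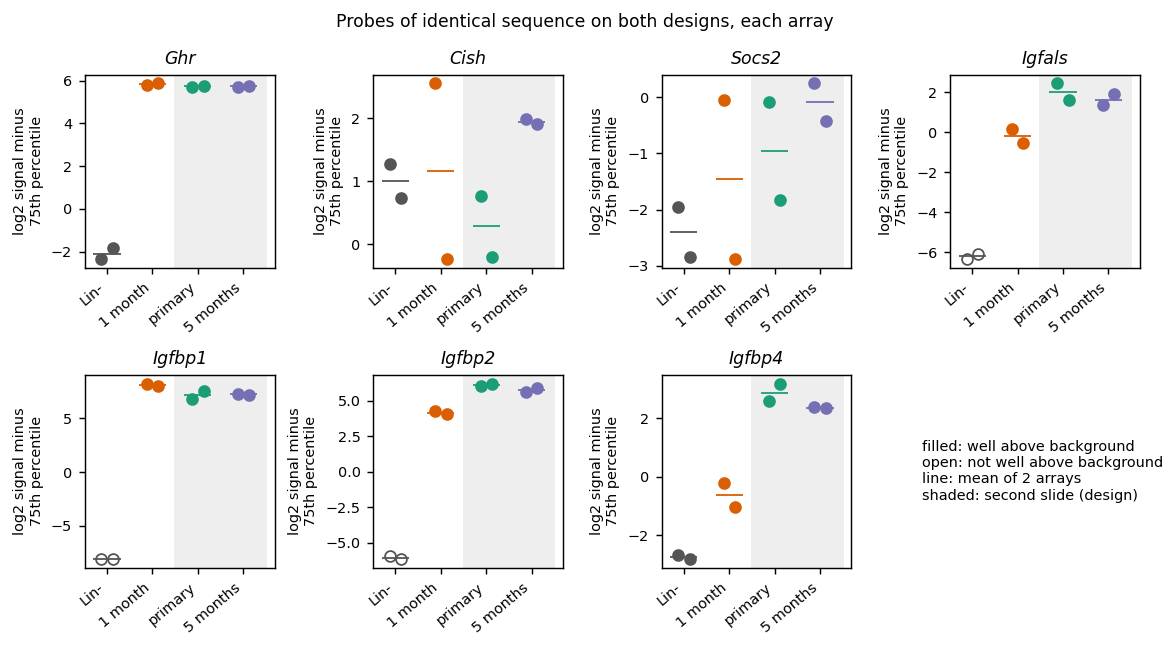
Level of the 7 genes with a shared probe (vertical axis, log2 signal minus the 75th percentile of the array over shared probes, a scale of its own for each gene) on both arrays of each group, with the mean as a line. The 1-month mean exceeds the primary mean by 0.10 for Ghr and by 0.94 for Igfbp1, while at 1 month Igfals, Igfbp2 and Igfbp4 lie between Lin- BM cells and the second slide.

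On these probes 1-month hepatocytes were set against primary hepatocytes. Of the 7 genes 3 were called, all lower at 1 month, where 16.7% of the 9204 genes were called (11.6% higher and 5.11% lower). When each array was scaled by all of its probes instead of the shared ones, the share of calls that were higher went from 69.4% to 49.9% over all genes, and the same 3 genes were called lower. The groups did not overlap for 5 of the 7 genes, all but Cish and Socs2, and for 64.6% of all genes tested. The 3 called genes were the carrier subunit Igfals and the binding proteins Igfbp2 and Igfbp4, which act on IGFs outside the cell. Igfbp1, a binding protein too, was not called and lay higher at 1 month (0.94), so this function did not set the called genes apart.

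Igfbp4 had levels of -2.68 and -2.82 in Lin- BM cells, -0.20 and -1.05 at 1 month, 2.58 and 3.19 in primary hepatocytes, and 2.40 and 2.34 at 5 months. No array of 1 month reached those of the second slide. The change at 1 month against primary hepatocytes was -3.51 (SE 0.35, adjusted p = 3.39e-03), an 11.4-fold difference, and at 5 months against 1 month it was 2.99 (SE 0.35, adjusted p = 4.69e-03).

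Igfbp2 had 4.26 and 4.08 at 1 month, 6.02 and 6.21 in primary hepatocytes, and 5.59 and 5.91 at 5 months. The change against primary hepatocytes was -1.94 (SE 0.23, adjusted p = 4.80e-03), and at 5 months against 1 month it was 1.58 (SE 0.23, adjusted p = 8.94e-03). The latter was not called without B2 (1.5, adjusted p = 0.0575) or without G3 (1.42, adjusted p = 0.0634).

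Igfals had 0.15 and -0.52 at 1 month, 2.45 and 1.59 in primary hepatocytes, and 1.34 and 1.90 at 5 months. It too was lower at 1 month on every array, by a change of -2.21 (SE 0.40, adjusted p = 0.0152), and 5 months exceeded 1 month by 1.81 (SE 0.40, adjusted p = 0.0282). The first call was lost without H2 (-1.78, adjusted p = 0.0589) or B2 (-1.87, adjusted p = 0.0829). The second was lost without any 1 of the arrays B1 (2.14, adjusted p = 0.0505), B2 (1.48, adjusted p = 0.134), G1 (2.09, adjusted p = 0.0887) and G3 (1.53, adjusted p = 0.154).

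Ghr and Igfbp1 were not among the called genes. Ghr had 5.80 and 5.87 at 1 month, 5.72 and 5.74 in primary hepatocytes, and 5.70 and 5.75 at 5 months. The change at 1 month against primary hepatocytes was 0.10 (95% interval -0.47 to 0.68), and its sign turned with the scaling of the arrays (-0.16 with the percentile over all probes). Igfbp1 had 8.22 and 7.98 at 1 month, 6.80 and 7.52 in primary hepatocytes, and 7.28 and 7.19 at 5 months. The arrays of 1 month were the highest, with a change of 0.94 (95% interval 0.25 to 1.63, adjusted p = 0.0706). Without H4 it was called (1.30, adjusted p = 0.0380).

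Between 5 months and 1 month the same arrays gave 3 of 7 genes called, all higher at 5 months, where 17.1% of genes were called (5.82% higher and 11.2% lower). The groups did not overlap for 5 of the 7, again all but Cish and Socs2, and for 71.7% of all genes tested. With the percentile over all probes 52.6% of the calls over all genes were higher in place of 34.1%. Igfbp1 had a change of -0.86 (95% interval -1.55 to -0.18, adjusted p = 0.0837; with quantile normalization it was called, -1.07 with adjusted p = 0.0452) and Ghr one of -0.11 (95% interval -0.69 to 0.46). This comparison and that with primary hepatocytes share the 1-month arrays. Of 7 tested IGF-binding genes, the median change was -1.38 at 1 month against primary hepatocytes (0.17 for all genes) and 1.58 at 5 months against 1 month (-0.14 for all genes). The called genes in each were Igfals, Igfbp2 and Igfbp4, so the medians rest in part on genes described above. Of the 4 not called, Igfbp5 (-1.05) and Stc1 (-1.38) were lower at 1 month than in primary hepatocytes, and not well above background there. Igfbp1 (0.94) and Igfbp3 (0.08) were not lower. Among 9 tested genes of growth hormone signalling Socs1 alone was called, higher at 1 month than in primary hepatocytes (3.69, adjusted p = 0.0410). That call was lost without B1 (2.35, adjusted p = 0.107) and without any 1 array of the second slide. Of the 4 hepatocyte markers with a shared probe, 3 (Alb, Apoa1 and Apob) were called higher at 5 months than at 1 month, and Fga was not (0.38). Between 1 month and primary hepatocytes 0 of 4 differed by a call (median change -0.82). The calls at 5 months were lost without any 1 of the arrays B1, B2, G1 and G3, and with each array scaled by all of its probes the same 3 markers were called lower at 1 month than in primary hepatocytes.

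**Figure D4:**
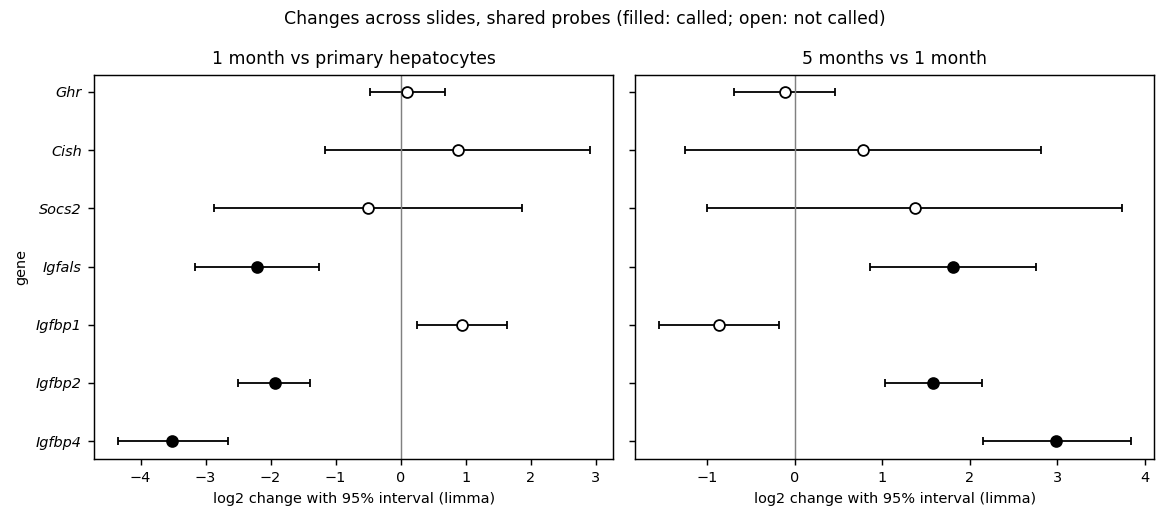
Log2 change (horizontal axis) with its 95% interval from limma for the 7 genes with a shared probe, at 1 month against primary hepatocytes (left) and at 5 months against 1 month (right). Filled points were called: Igfals, Igfbp2 and Igfbp4 are below 0 on the left and above 0 on the right, and the intervals of Cish and Socs2 are the widest.

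Cish and Socs2 varied within groups on the shared scale as well. Cish had 1.27 and 0.73 in Lin- BM cells, 2.55 and -0.23 at 1 month, 0.77 and -0.20 in primary hepatocytes, and 1.98 and 1.90 at 5 months. Socs2 had -1.95 and -2.84, -0.05 and -2.88, -0.08 and -1.83, and 0.25 and -0.43 in the same order of groups. In each of the 4 groups the array with the higher Cish also had the higher Socs2, but this counts small gaps. Over all probes of a slide, 48.3% of genes reached the Cish gap in Lin- BM cells and 92.6% that at 5 months. At 1 month B1 exceeded B2 by 7.14-fold for Cish and by 7.38-fold for Socs2, gaps that 0.403% and 0.372% of the genes of that slide reached.

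Other suppressors of cytokine signalling differed between these arrays too. Socs3 was 30.7-fold and Socs1 6.69-fold higher on B1 than on B2, gaps that 0.0456% and 0.498% of genes reached, while Ghr (1.01-fold) and Stat5b (1.19-fold) were alike on both. On the Lin- arrays L3 exceeded L4 by 4.81-fold for Socs3 and 2.95-fold for Socs1. At 5 months the arrays differed by at most 1.55-fold for any of the 4 inhibitors. The summed level of Kupffer cell and macrophage markers was 12.9 on B1 and 51.2 on B2, and that of 10 induced acute phase genes 3900 and 2890, and their part in the gap was not tested.

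**Figure D5:**
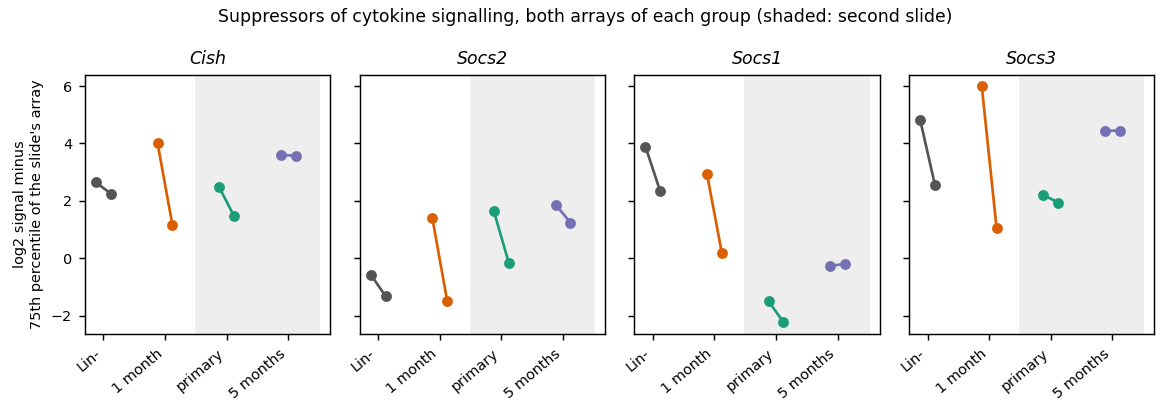
Level of 4 suppressors of cytokine signalling (vertical axis, log2 signal minus the 75th percentile of the array) on the 2 arrays of each group, joined by a line; levels are to be compared within a gene and a slide (shaded, the second slide). The pair at 1 month is the farthest apart for all 4 genes, from 2.74 for Socs1 to 4.94 for Socs3, and the pair at 5 months is close for Cish, Socs1 and Socs3.

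The genes whose pattern over the 8 arrays was nearest to each of the 7 genes were sought by the root mean square difference of levels centred on their mean, among 6308 to 6309 genes well above background on all arrays. The nearest to Ghr was Il1rap (0.20), followed by Eva1a (0.24) and Agmat (0.25). Igfbp2 was nearest to Slc38a3 (0.34), and Igfbp4 to Gm7189 (0.39) and Tagln (0.44). Igfals was nearest to Serping1 (0.51) and F7 (0.55), and Igfbp1 to Akr1c6 (0.73), but Igfals, Igfbp1 and Igfbp2 were at background in Lin- BM cells, so their distances rest in part on signals below detection. Cish was nearest to Foxs1 (0.56) and Socs2 to Ssh1 (0.69), both at larger distances than Ghr, Igfbp2 and Igfbp4. The distances describe 8 arrays and carry no test.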

How the data were processed

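The authors deposited the output of Agilent Feature Extraction 11.5.1.1 for 8 arrays, with background-subtracted signals as intensities, and log2 values shifted to the 75th percentile in GeneSpring GX. The deposited log2 values of nearly all spots differed from the log2 intensities by 1 constant per array. Spots marked as outliers were left out, spots of a probe were averaged, and the 75th percentile of log2 intensity was subtracted for each array. A probe entered a test when its signal exceeded background on both arrays of any group, and the brightest probe stood for a gene. Groups on a slide were compared over all its probes, and groups on different slides over probes of identical sequence. Differences of group means came from limma 3.58.1 (R 4.3.3), adjusted over all genes by the Benjamini-Hochberg method. The limit of 0.6 on the log2 change is that of the study's methods, which name a Student test and mention no adjustment for many tests. Data were simulated for the comparisons within a slide, at the spread of these arrays and with only a small share of genes changed. In them, changes of a few fold were never called and many far larger ones were missed. Where many genes differed, as at 1 month against Lin- BM cells, some changes of a few fold were called in the real data. A missing call is therefore no sign of equality. A bound against background uses the dimmest probe well above it. The members, lists and tests were chosen with earlier results of these data known. Named genes are the members, the called genes of the lists with a few examples, and the nearest genes by pattern. Coordinates of probes are mm9, and those of promoters GRCm38.p6.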

Additional observations from a re-analysis of the deposited data

How the results depend on the processing

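No paired analysis was possible because the groups compared share fewer than 2 replicate numbers. With 2 arrays a group an exact permutation test cannot go below p = 0.333. By the methods' t-test with Benjamini-Hochberg adjustment, the comparison of 1 month with Lin- BM cells had 4 of 10 genes called (7 by limma), where 16% of all genes were. For 1 month with primary hepatocytes it was 0 of 7 (3 by limma), where 0.0217% of all genes were called. For 5 months with 1 month it was 0 of 7 (3 by limma), where 0.152% were. With the last 2 shares so small, the counts of 0 are no result about these genes. Leaving out 1 array at a time gave 0 to 1 called genes for 5 months against primary hepatocytes (1, Cish, without H2) and 1 to 3 for 5 months against 1 month (1, Igfbp4, without B2 or without G3). The other counts of members stayed within 1.5 times the main count.

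Counts over all genes moved more. At 1 month against Lin- BM cells 15777 of 28522 genes were called (55.3%), 26463 of 49803 with no filter on dim probes (53.1%), 5772 of 9204 on shared probes (62.7%) and 9890 without B2. Of these calls 52.1% were higher, against 62.7% with normexp, 71.9% with no filter and 47.3% with quantile normalization. At 5 months against primary hepatocytes 110 genes became 38 with no filter, 1397 without H2, 1307 without H4, 0 without G1 and 0 without G3, and 1363 by the methods' t-test without adjustment. With normexp, 1534 calls at 1 month against primary hepatocytes became 2408 and 1571 at 5 months against 1 month became 2678. With no filter the first became 4035 of 13217 genes tested (84.8% higher). Without single arrays they went down to 581 and 336. The adjusted t-test called 4566 genes for 1 month and 0 for 5 months within the slides, 2514 for primary hepatocytes and 3333 for 5 months against Lin- BM cells (6207 and 6179 by limma), and 2 and 14 for the last 2 comparisons.

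With normexp the called change of Pappa at 1 month against Lin- BM cells turned its sign, as given above. So did those of Ghrhr in primary hepatocytes and at 5 months against Lin- BM cells. Among the members of the axis, signs turned only for changes that were not called. For Cish at 1 month against Lin- BM cells it was -0.13 with normexp, and for Igf1 at 5 months against primary hepatocytes 0.04 with the mean of probes. For Ghr at 1 month against primary hepatocytes it was -0.05 with normexp, -0.17 with the authors' values and -0.16 with the percentile over all probes, and at 5 months against 1 month 0.04, 0.12 and 0.12. Leaving out arrays gave -1.29 to 1.55 for Cish and -0.54 to 2.34 for Socs2 at 1 month against Lin- BM cells. At 5 months against primary hepatocytes it gave -0.89 to 0.01 for Igfals, -0.30 to 0.38 for Igfbp1, -0.07 to 1.72 for Socs2 and -0.13 to 0.30 for Stat5b. At 1 month against primary hepatocytes it gave -1.92 to 0.91 for Socs2 and -0.51 to 2.27 for Cish, and at 5 months against 1 month -0.04 to 2.78 and -0.61 to 2.17. Normexp lowered changes against background at 1 month to 2.77 for Igfals, 6.76 for Igfbp2 and 10.81 for Igfbp1, and all 3 were still called. The cause was not tested. Signals near background limit Igfals, Igfbp1 and Igfbp2 in Lin- BM cells to bounds.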
